A study of Arabidopsis thaliana with 12 samples.

Results

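CHLM and AT1G74470 are a pair of nuclear genes whose products act in the chlorophyll branch of tetrapyrrole synthesis in the plastid. They were chosen by name, as the methyltransferase CHLM and the geranylgeranyl reductase AT1G74470, and each had exactly 1 probe annotated to it alone. These 2 genes stand among 689 genes with such a probe, on an array table of 3439 probes. Total RNA came from wild-type Arabidopsis thaliana of the Columbia 0 ecotype, in 6 samples from plants kept for 6 d in air with 1% CO2 (by volume) and in 6 samples from plants at normal CO2, labelled 0 d. All 12 samples share the genotype, and no mutant or other treatment enters the comparison. The labels name neither the organ nor the plant age at harvest, and CO2 level and 6 d of growth cannot be told apart. Of 5 root markers none had a probe of its own, and of 25 genes for chlorophyll-binding proteins, which mark green tissue, only LHB1B2 had one, so the organ was not checked further.

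Chlorophyll is built in the plastid from glutamate through protoporphyrin IX, the point where the magnesium branch leaves the heme branch. In the magnesium branch, magnesium chelatase inserts the metal, and CHLM, the magnesium protoporphyrin IX methyltransferase, then adds a methyl group from S-adenosylmethionine. This methylation allows the cyclase to close a further ring on the way to chlorophyll. AT1G74470 encodes geranylgeranyl reductase, known as CHLP, which saturates the geranylgeranyl chain to the phytyl tail of chlorophyll. The same enzyme supplies phytyl chains for tocopherol and phylloquinone.

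The values the authors deposited are linear intensities, from 0 up to a shared top value, of unstated normalization. They were quantile normalized before testing, which brings the samples to a common distribution apart from the probes listed at 0, which stayed at 0. A probe's brightness depends on its sequence and labelling as well as on its transcript, so levels are compared between samples and not between the genes. In whole-plant or organ RNA, fewer cells expressing a gene and less RNA per cell cannot be told apart. No label says that a group's 6 samples stem from different plants. Every sample had its highest correlation with its neighbour in number (1 with 2, 3 with 4, 5 with 6), with r from 0.924 to 0.982 across 3439 probes. P-values over single samples, also where some are left out, therefore may count repeats as replicates, and results are also given over the 3 pair means of each group. Samples 5 and 6 of the high-CO2 group were closer to normal-CO2 samples 1 to 4 than to the other high-CO2 samples. The high-CO2 samples 5 and 6 correlated at 0.901 to 0.917 with normal-CO2 samples 1 to 4, and at 0.837 to 0.866 with the other high-CO2 samples. The normal-CO2 samples 5 and 6 correlated at 0.796 to 0.803 with the other normal-CO2 samples and at 0.726 to 0.781 with high-CO2 samples 1 to 4. Samples 5 and 6 of the high-CO2 group correlated at 0.803 to 0.806 with those of the normal-CO2 group (all over the 3349 probes tested), and high-CO2 samples 1 to 4 correlated at 0.811 to 0.852 with normal-CO2 samples 1 to 4. Results on CHLM and AT1G74470 are given with and without these samples.

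Neither gene passed the test for a difference between high and normal CO2 over the 12 samples. CHLM averaged 0.440 ± 0.201 in the high-CO2 group and 0.449 ± 0.0874 in the normal-CO2 group, and AT1G74470 averaged 2.61 ± 0.692 in the high-CO2 group and 2.54 ± 0.860 in the normal-CO2 group (normalized intensity, SD, n = 6 each). The pairs of samples within a group differed from each other. AT1G74470 was lower at high CO2 in every comparison of samples 1 to 4 and higher at high CO2 in samples 5 and 6.

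The normalized intensity of CHLM, the methyltransferase gene, was 0.235, 0.352, 0.392, 0.299, 0.600 and 0.763 in high-CO2 samples 1 to 6. At normal CO2 it was 0.564, 0.555, 0.369, 0.382, 0.402 and 0.424 in samples 1 to 6. The highest values of the whole set came from high-CO2 samples 5 and 6, the lowest from high-CO2 samples 1 and 4, and the normal-CO2 values lay inside that range. The 2 groups therefore overlapped, and the high-CO2 samples spread more widely, with a 3.24-fold range against a 1.53-fold range at normal CO2. Among high-CO2 samples the SD of CHLM on the log2 scale was 0.633, and 79.2% of the 2349 probes above the floor in all samples had a smaller SD. Among normal-CO2 samples it was 0.271, and 23.0% of the probes had a smaller SD. The wider spread depended on the scaling. With values as deposited the ranges were alike, 1.88-fold at high CO2 and 1.82-fold at normal CO2. Divided by the sample median they were 3.65-fold and 1.7-fold. A test of that difference in spread was not made.

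**Figure D1:**
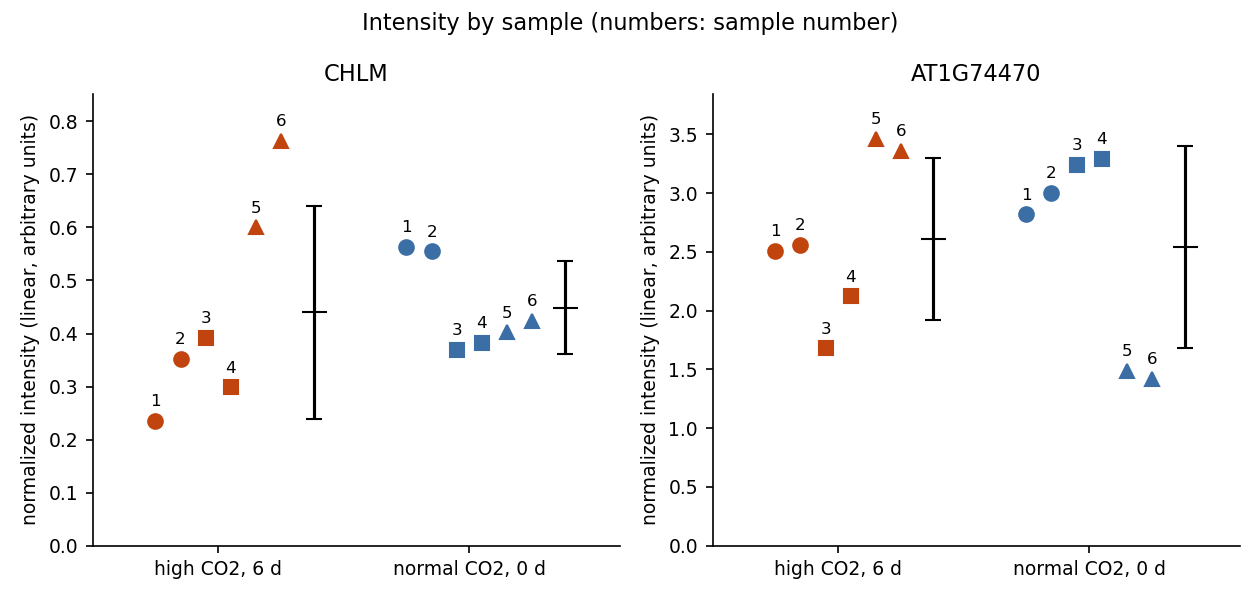
Normalized intensity (linear, arbitrary units) of CHLM (left panel) and AT1G74470 (right panel) in each sample, with high CO2 in red and normal CO2 in blue, circles for samples 1 and 2, squares for 3 and 4, triangles for 5 and 6, and bars for the mean and SD of 6 samples. High-CO2 samples 5 and 6 are the highest of both genes, and normal-CO2 samples 5 and 6 are the lowest of AT1G74470, at 1.49 and 1.42.

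The log2 difference of CHLM, high minus normal CO2, was -0.13 (SE 0.28; limma adjusted p = 0.793), a 0.916-fold level with a 95% confidence interval from 0.605 to 1.39-fold. Of all probes, 12.5% of the 3349 tested passed, 5.52% as higher and 6.96% as lower at high CO2, and 0 of the 2 genes was among them. Over pair means the limma adjusted p was 0.919, and there 0% of probes passed, while 408 had an unadjusted p under 0.05. The sign of the CHLM difference depended on the scaling. It was 0.32 with values as deposited (adjusted p = 0.366; 11.6% of probes passed in that fit), where the median probe was 0.45 higher at high CO2, so CHLM stood below the shift of the table. After median scaling the difference was -0.27 (adjusted p = 0.611; 9.78% of probes passed).

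Without samples 5 and 6 of both groups the CHLM difference was -0.55 on the log2 scale (95% confidence interval from -1.06 to -0.03), a 0.685-fold level. It did not pass after adjustment (limma adjusted p = 0.0886), in a fit where 37.9% of all probes passed. Nor did it pass over the remaining 2 pair means per group (limma adjusted p = 0.273), where 0 of 3349 probes passed. Sample numbers were not taken to pair the groups, so the following differences are not of matched samples. Split by sample number, the mean of high-CO2 samples 1 and 2 lay 0.96 below that of normal-CO2 samples 1 and 2 on the log2 scale (difference -0.96). For samples 3 and 4 the difference was -0.13, and for samples 5 and 6 it was 0.71. With values as deposited these differences were -0.18, 0.93 and 0.23, so the order of the pairs was not kept between scalings.

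The normalized intensity of AT1G74470, the geranylgeranyl reductase gene, was 2.51, 2.56, 1.68, 2.12, 3.46 and 3.36 in high-CO2 samples 1 to 6. At normal CO2 it was 2.82, 3.0, 3.24, 3.29, 1.49 and 1.42 in samples 1 to 6. Members of a pair lay close together, at most 0.445 apart at high CO2 and 0.178 apart at normal CO2, while the pair means of the high-CO2 group ran from 1.90 to 3.41 and those of the normal-CO2 group from 1.45 to 3.26. The groups overlapped over almost their whole ranges. Within samples 1 to 4 they did not overlap, with all 4 high-CO2 samples below all 4 normal-CO2 samples, and in samples 5 and 6 the order was turned. Of the 3349 probes tested, 20.7% had all of high-CO2 samples 1 to 4 below all of normal-CO2 samples 1 to 4, and 8.75% in addition had both high-CO2 samples above both normal-CO2 samples in numbers 5 and 6. AT1G74470 was thus 1 of 293 probes with this pattern.

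The log2 difference of AT1G74470, high minus normal CO2, was 0.08 over 12 samples (SE 0.28; limma adjusted p = 0.875), a 1.06-fold level with a 95% confidence interval from 0.698 to 1.6-fold. Over pair means the limma adjusted p was 0.953. The sign of the 12-sample difference depended on the scaling, since it was -0.53 after median scaling (limma adjusted p = 0.487). Differences by number only describe the values, as same-numbered samples were not taken to be paired. By number, the log2 difference was -0.20 for samples 1 and 2, -0.79 for samples 3 and 4 and 1.23 for samples 5 and 6. The signs by number were the same with values as deposited (-0.14, -0.80 and 1.12) and after median scaling (-1.18, -2.07 and 1.66). Without samples 5 and 6 of both groups the difference was -0.49, a 0.710-fold level (95% confidence interval from 0.553 to 0.911-fold; limma adjusted p = 0.0391), and passed. This call stands among 37.9% of all probes in that fit, and 19.8% of probes passed as lower. It did not hold when pairs were taken into account. Over the remaining 2 pair means per group the limma adjusted p was 0.246, in a fit where 0 of 3349 probes passed. With pairs as a random block it was 0.0928, in a fit where 862 of 3349 probes passed. Both of these fits were added after the data had been seen. The fit that passed, without samples 5 and 6, was itself chosen with earlier results of these data known. Leaving out samples 5 and 6 of the normal-CO2 group alone gave -0.28 (adjusted p = 0.369), and leaving out those of the high-CO2 group alone gave -0.13 (adjusted p = 0.775). Whether the group difference itself differs between samples 1 to 4 and samples 5 and 6 was not tested.

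**Figure D2:**
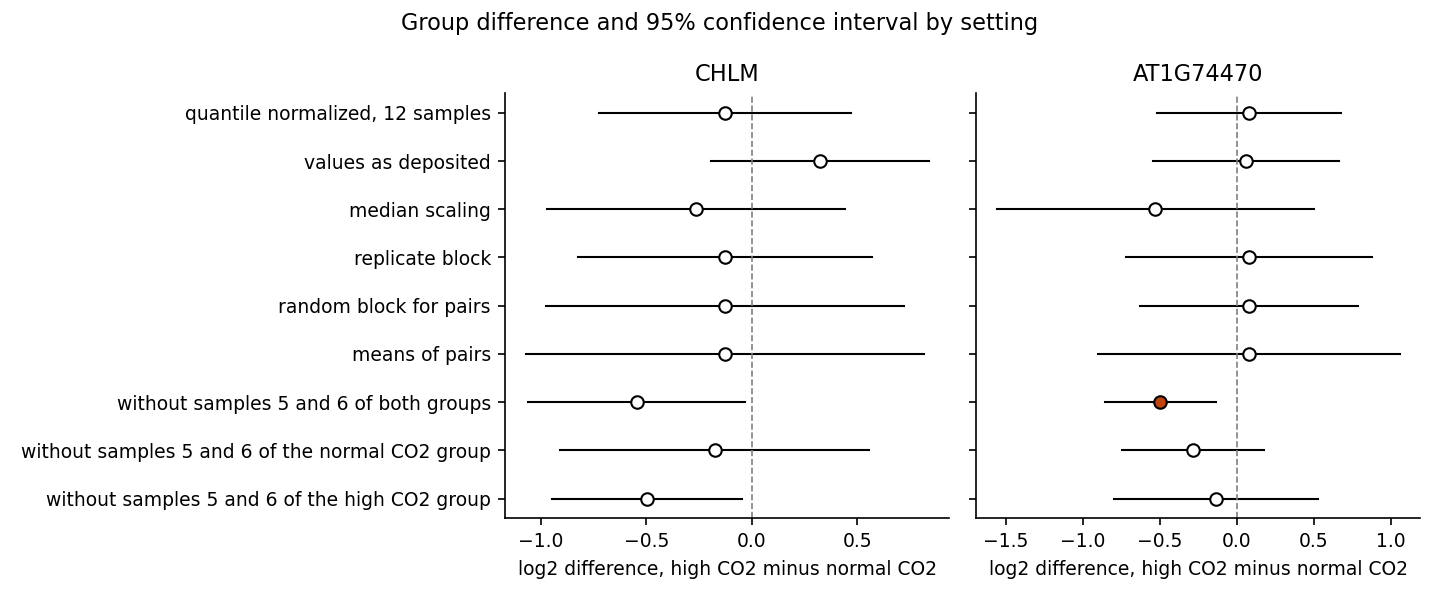
Log2 difference, high minus normal CO2, with its 95% confidence interval for CHLM (left) and AT1G74470 (right) under 9 settings, with a filled point where the adjusted p was under the threshold of 0.05. Only the AT1G74470 fit without samples 5 and 6 of both groups passed, at -0.49, and its estimate over 12 samples lay at 0.08.

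AT1G74470 was brightest in the 6 samples of lowest overall brightness. The median deposited intensity of a sample was 0.340, 0.341, 0.390 and 0.386 in high-CO2 samples 1 to 4, and 0.174 and 0.175 in high-CO2 samples 5 and 6. In normal-CO2 samples 1 to 4 it was 0.165, 0.166, 0.161 and 0.160, and in normal-CO2 samples 5 and 6 it was 0.256 and 0.255. The 6 samples with medians from 0.160 to 0.175 (high-CO2 samples 5 and 6, normal-CO2 samples 1 to 4) were the 6 samples in which AT1G74470 was brightest, at deposited intensities from 2.79 to 3.39. The other 6 samples had deposited intensities from 1.5 to 2.62. Among those 6 the order was not opposite to brightness. The lowest values, 1.62 and 1.5, came from normal-CO2 samples 5 and 6, whose medians lay below those of high-CO2 samples 1 to 4. The share of all probes that divide the samples this way was not counted. The part of overall brightness in these values was not tested. The deposited values of CHLM did not divide this way: the 4 highest were 0.609, 0.566, 0.467 and 0.466, in high-CO2 samples 6 and 3, normal-CO2 sample 6 and high-CO2 sample 5.

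The rank of a probe within its own sample does not change with any scaling that keeps the order of probes. AT1G74470 ranked between 119th and 274th from the top of 3439 probes at high CO2, and between 126th and 324th at normal CO2. Its rank percentile averaged 94.8 ± 1.69 in the high-CO2 group and 94.3 ± 2.70 in the normal-CO2 group (SD, n = 6 each). The difference of 0.490 percentile points did not pass (two-sided exact permutation p = 0.723). CHLM ranked nearer the middle of the table, between 616th and 1781st at high CO2, and between 842nd and 1251st at normal CO2. Its rank percentile averaged 65.3 ± 12.6 in the high-CO2 group and 68.9 ± 5.22 in the normal-CO2 group (SD, n = 6 each). The difference was -3.59 points (two-sided exact permutation p = 0.526).

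**Figure D3:**
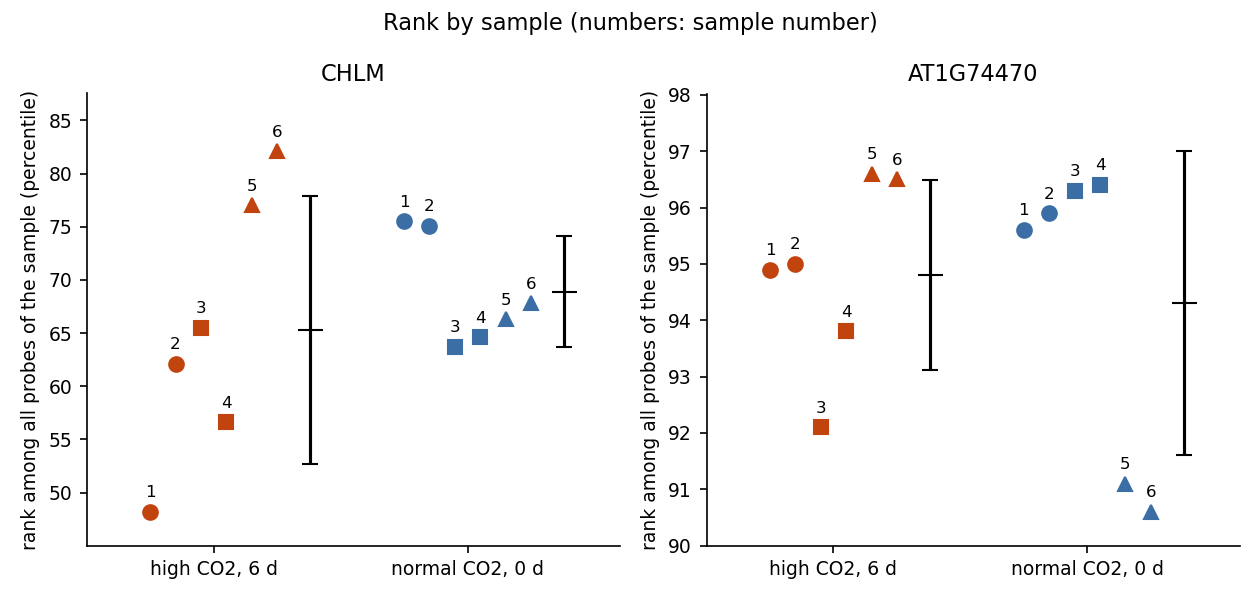
Rank percentile of CHLM (left panel) and AT1G74470 (right panel) among all 3439 probes of each sample, with colours and symbols for groups and sample pairs and bars for the mean and SD of 6 samples; the axes do not start at 0 and differ between panels. AT1G74470 lies between 90.6 and 96.6 in all samples, and CHLM between 48.2 and 82.1.

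Quantile normalization sets each value from its rank in the sample, so ranks must follow the normalized intensities and are no separate check of them. High-CO2 samples 1 to 4 had AT1G74470 at percentiles 94.9, 95, 92.1 and 93.8, below the 95.6, 95.9, 96.3 and 96.4 of normal-CO2 samples 1 to 4. High-CO2 samples 5 and 6 were at 96.6 and 96.5, above the 91.1 and 90.6 of normal-CO2 samples 5 and 6. Without samples 5 and 6 of both groups the mean rank percentile of AT1G74470 was lower at high CO2, with a difference of -2.1 points (two-sided exact permutation p = 0.0286, the smallest p that 4 against 4 can give). For CHLM the same difference was -11.6 points (two-sided exact permutation p = 0.0857). Without samples 5 and 6 of the high-CO2 group alone it was -10.7 points (two-sided exact permutation p = 0.0286), and without those of the normal-CO2 group alone it was -4.48 points (p = 0.562 by the same exact test). These tests over single samples count both members of a pair as replicates. The samples left out were chosen with earlier results of these data known. In normalized intensity, 20.7% of the 3349 probes tested had all of high-CO2 samples 1 to 4 below all of normal-CO2 samples 1 to 4. Over all pair means the exact p was 0.7 for CHLM and 0.8 for AT1G74470, in a design of 3 against 3 that can give no p below 0.1. Ranks were not tested over the pair means of samples 1 to 4 alone.

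The genes were next compared within each sample, since the difference of their log2 values is the same under any linear scaling of a sample. It asks whether they changed unequally and not which is more abundant. Log2 CHLM minus log2 AT1G74470 averaged -2.65 in the high-CO2 group and -2.44 in the normal-CO2 group after quantile normalization (n = 6 each). The group difference of -0.21 did not pass (two-sided exact permutation p = 0.517). With values as deposited or median scaled it was 0.26 (two-sided exact permutation p = 0.515), so its sign turned. Without samples 5 and 6 of both groups it was -0.05 after quantile normalization (two-sided exact permutation p = 0.886). An unequal change of the 2 genes was not detected, and this does not show that they changed alike.

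How the genes varied together depended on the group and on the scaling. After quantile normalization both genes were highest in high-CO2 samples 5 and 6, and 5 of 6 high-CO2 samples lay on the same side of the group mean for both genes. Their deviations from the group mean on the log2 scale were 0.57 and 0.91 for CHLM and 0.45 and 0.41 for AT1G74470 in high-CO2 samples 5 and 6. At normal CO2, 4 of 6 samples lay on the same side for both. Samples 1 and 2 were above the mean for both genes, samples 5 and 6 were below it for both, and samples 3 and 4 were low for CHLM (-0.26 and -0.21) and high for AT1G74470 (0.43 and 0.46).

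As a description, Pearson's r between the log2 values was 0.617 over the 6 high-CO2 samples and 0.154 over the 6 normal-CO2 samples, and Spearman's rho was 0.543 and -0.486. With values as deposited r was 0.0116 among the high-CO2 samples and -0.702 among the normal-CO2 samples, and 2 of 6 samples in each group lay on the same side of the mean, so the relation depended on the scaling. After median scaling r was 0.844 among the high-CO2 samples, all 6 of which lay on the same side of the mean for both genes, and 0.215 among the normal-CO2 samples. The positive values rested on samples 5 and 6. Over samples 1 to 4 alone, after quantile normalization, r was -0.609 among the 4 high-CO2 samples and -0.934 among the 4 normal-CO2 samples, and 2 of 4 and 0 of 4 lay on the same side of the mean for both genes. These samples are not shown to be independent and form 3 pairs a group, and no test of the relation was made.

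**Figure D4:**
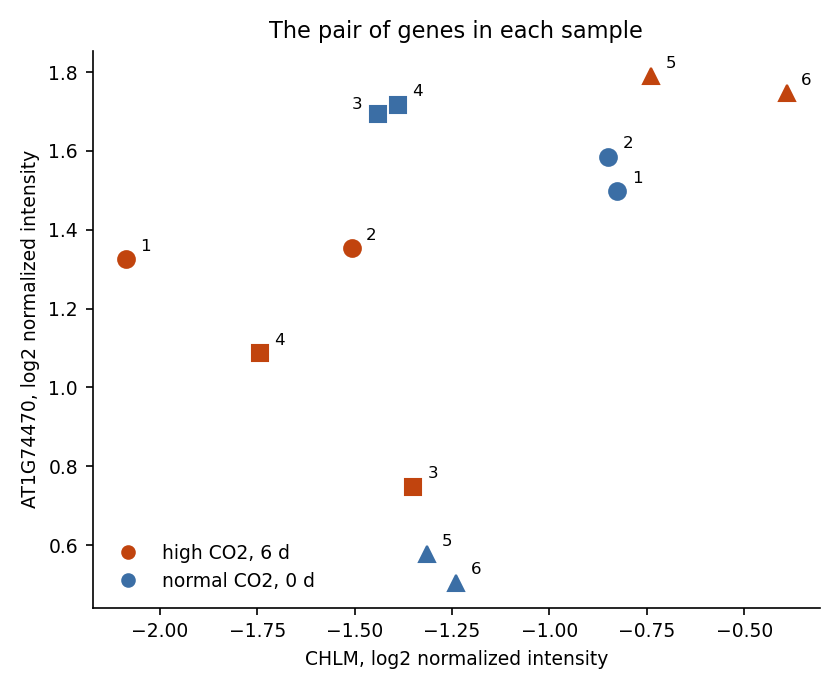
Log2 normalized intensity of CHLM (x axis) and AT1G74470 (y axis) in each of the 12 samples, high CO2 in red and normal CO2 in blue, with the sample number beside each point and a symbol for each pair. High-CO2 samples 5 and 6 lie at the upper right, and normal-CO2 samples 5 and 6 lie at the bottom near the middle of the CHLM range.

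The genes with the most similar pattern were sought among 445 other genes with a single-gene probe above the floor, above 0 and below the top value in every sample, by Pearson's r over the 12 log2 values. For AT1G74470 the closest were AT5G05400 (r = 0.937), AT2G25870 (0.935), AT4G24930 (0.933), AT1G51080 (0.922) and AT3G23940 (0.919). Over the 6 pair means these correlations were 0.943, 0.950, 0.935, 0.942 and 0.940. With values as deposited they ran from 0.514 for AT5G05400 to 0.901 for AT1G51080. None of these 5 genes passed the group test, with limma adjusted p from 0.464 to 0.940. The annotation used gives them no name beyond the locus.

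For CHLM the closest were AT5G67490 (r = 0.809), AT1G09200 (0.804), AT3G54210 (0.776), AT1G01080 (0.734) and AT1G44830 (0.728). Over pair means their correlations with CHLM were 0.885, 0.820, 0.828, 0.759 and 0.756. AT1G09200 encodes a histone H3. With values as deposited the correlation of AT5G67490 with CHLM was 0.239, while that of AT3G54210 was 0.862. None of the 5 passed the group test (limma adjusted p from 0.234 to 0.869). AT1G74470 stood at place 86 of the 445 genes by likeness to CHLM (r = 0.357 over 12 samples, 0.419 over pair means, -0.367 over 12 samples as deposited and 0.644 after median scaling), and CHLM stood at place 123 by likeness to AT1G74470. The median r of all genes with either was -0.0136. These correlations share samples, pairs and overall brightness, and carry no test.

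Beyond these genes, 5 of the remaining 127 genes on lists of neighbouring pathway steps and markers had a probe of their own, and 6 more probes that name several genes, at least 1 of them on the lists, were not used. In the steps common to all tetrapyrroles, HEMA3, a glutamyl-tRNA reductase that makes the precursor of aminolevulinic acid, was the 1 gene measured of 16. Its normalized intensity was 1.01, 1.16, 0.919, 0.894, 2.32 and 2.46 in high-CO2 samples 1 to 6, and 1.13, 1.19, 1.04, 0.995, 0.806 and 0.722 in normal-CO2 samples 1 to 6. As with AT1G74470, high-CO2 samples 5 and 6 were the highest and normal-CO2 samples 5 and 6 the lowest. The log2 difference was 0.46 (limma adjusted p = 0.298). It was -0.13 in samples 1 to 4 of each group (adjusted p = 0.434).

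On the list of the heme, bilin and siroheme branches, SIRB, the sirohydrochlorin ferrochelatase that inserts iron to make siroheme, was the 1 gene measured of 9. SIRB averaged 0.266 ± 0.0908 in the high-CO2 group and 0.206 ± 0.0421 in the normal-CO2 group (SD, n = 6 each; log2 difference 0.32, limma adjusted p = 0.415), with overlapping groups. AT1G78620, the 1 gene measured of 9 on the list of tocopherol and phylloquinone synthesis, which use the phytyl chain, averaged 0.306 ± 0.147 in the high-CO2 group and 0.507 ± 0.179 in the normal-CO2 group (SD, n = 6 each). Its log2 difference was -0.80 (limma adjusted p = 0.171), and its lowest normal-CO2 values, 0.279 and 0.281, were those of samples 5 and 6. Without samples 5 and 6 of both groups the difference was -1.57 and passed (limma adjusted p = 0.00633), in the fit where 37.9% of probes passed. With a random pair block it also passed (limma adjusted p = 0.0124), as did 862 of 3349 probes. It did not pass over the remaining pair means (limma adjusted p = 0.118), where 0 of 3349 probes passed. No gene of chlorophyll breakdown, carotenoid synthesis, the plastid isoprenoid pathway that supplies geranylgeranyl, or the regulators of tetrapyrrole synthesis had a probe of its own.

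On the supply side of CHLM, CBL, a step of methionine synthesis upstream of S-adenosylmethionine, was the 1 gene measured of 9. It fell, with 0.157 to 0.417 at high CO2 (median 0.246) against 0.515 to 1.01 at normal CO2 (median 0.657; log2 change -1.36, limma adjusted p = 0.0135). In that fit 6.96% of all probes tested passed as lower and 5.52% as higher at high CO2. On the side that binds the finished pigment, the probe of the antenna gene LHB1B2 rose, with 4.40 to 5.17 at high CO2 (median 5.04) against 2.25 to 2.68 at normal CO2 (median 2.38; log2 change 1.04, limma adjusted p = 0.00261). Near-identical LHCB1 paralogues exist, so that probe may read several of them. After median scaling LHB1B2 no longer passed (log2 difference 0.35, adjusted p = 0.424). Neither call held over pair means (adjusted p = 0.407 each), where 0 of 3349 probes passed. In both of these genes samples 5 and 6 kept the direction of the other samples of their group, unlike in AT1G74470. For CBL, though, the normalized values of high-CO2 samples 5 and 6 (0.417 and 0.406) were the highest of their group. Those of normal-CO2 samples 5 and 6 (0.515 and 0.539) were the lowest of theirs, as in AT1G74470.

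**Figure D5:**
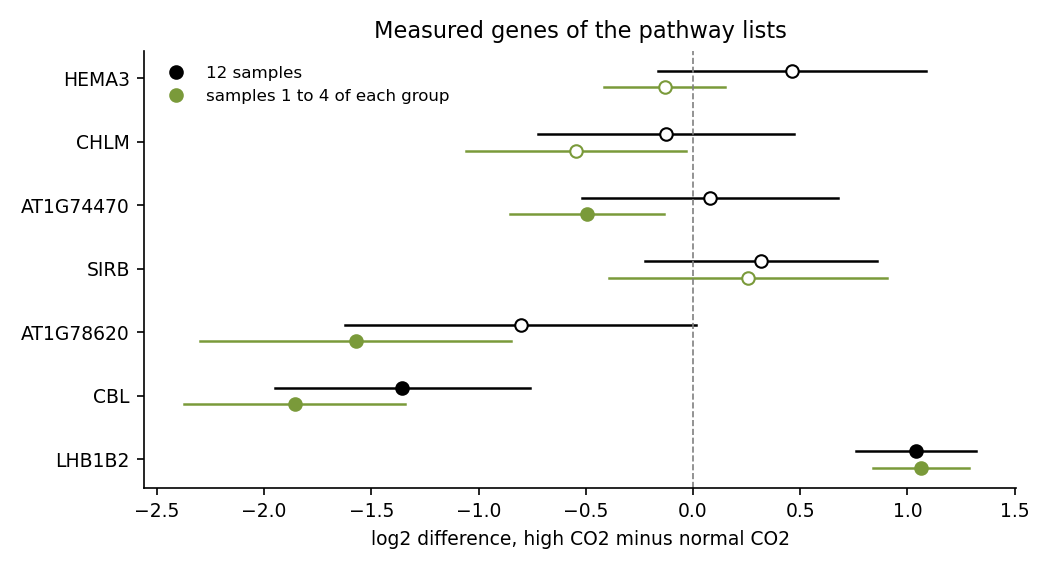
Log2 difference, high minus normal CO2, with 95% confidence intervals for the 7 measured genes of the pathway lists, over 12 samples (black) and over samples 1 to 4 of each group (green), with filled points where the adjusted p was under 0.05. Over 12 samples CBL (-1.36) and LHB1B2 (1.04) passed, and CHLM and AT1G74470 lay near 0.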

How the data were processed

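The deposited table held intensities of 3439 probes in 12 samples. That they are linear was read from the values; array type, scanner, background correction and any normalization by the authors are not stated in the labels or the file. The number of arrays limits the precision. Groups and numbers came from the sample titles. Sample medians lay between 0.648 and 1.58 times their mean, so quantile normalization was applied (limma 3.58.1 in R 4.3.3). Listed zeros stayed at 0, and before log2 a floor of 0.0398, common to all samples, was set. Both genes lay above this floor in all samples. lmFit and eBayes, with group as the only term, were fitted to 3349 probes, leaving out 90 at the floor everywhere, with Benjamini-Hochberg adjustment at 0.05. Ranks and within-sample differences had two-sided exact permutation tests (scipy 1.17.1; 924 arrangements).

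Probes were named through a 2016 platform annotation, in which 692 probes had 1 gene, 870 several and 1877 none given, with current symbols from RefSeq (TAIR10.1, names only; 690 matched). Named genes were the 2 given, all measured members of 11 lists with 129 entries written from general knowledge, and the 5 genes most like each. The genes, lists and alternatives were chosen with earlier results of these data known. Deviations of same-numbered samples from their group means correlated at -0.0784 to 0.158 between groups, over 0.1 in 2 of 6, so numbers were not taken to pair the groups.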

Additional observations from a re-analysis of the deposited data

How the results depend on the processing

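In the limma fits neither gene passed in any setting but 1: the other scalings, floors, filters, variance model, blocks, pair means and single samples left out all left both without a call, and AT1G74470 passed only without samples 5 and 6 of both groups (log2 difference -0.49), and there neither over pair means nor with a random pair block. Signs did turn. For CHLM the difference was 0.32 with values as deposited, and -0.31 to 0.030 with single samples left out. For AT1G74470 it was -0.53 after median scaling, -0.28 and -0.13 without samples 5 and 6 of the normal-CO2 and of the high-CO2 group, and -0.072 to 0.20 with single samples left out. The rank difference of CHLM was -10.7 points without high-CO2 samples 5 and 6, and -6.96 to -0.186 with single samples left out. That of AT1G74470 was -2.1 without samples 5 and 6 of both groups, -1.24 without those of the normal-CO2 group, -0.371 without those of the high-CO2 group, and -0.249 to 1.04 with single samples left out. The within-sample difference was 0.26 as deposited and likewise after median scaling, 0.10 without normal-CO2 samples 5 and 6, and -0.35 to -0.053 with single samples left out. The number of probes passing, 418, was 0 over pair means and 0 in limma with a random pair block (408 and 511 at unadjusted p under 0.05). It was 1270 without samples 5 and 6 of both groups, 900 without those of the high-CO2 group, and 230 (without high-CO2 sample 3) to 580 (without high-CO2 sample 5) with single samples left out. In 2 fits added after the data had been seen, without samples 5 and 6 of both groups, it was 0 over the remaining pair means (1059 at unadjusted p under 0.05) and 862 with a random pair block. Leaving out high-CO2 sample 1, 2 or 4 gave 266, 242 or 240, and leaving out normal-CO2 sample 5 gave 270. With values as deposited 326 rose and 65 fell, and after median scaling 85 rose and 246 fell, against 185 and 233. The cause of these changes was not tested.

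The replicate number as a block left the differences at -0.13 for CHLM (limma adjusted p = 0.809) and 0.08 for AT1G74470 (adjusted p = 0.902), with 460 probes passing. With the same block, exact sign-flip tests of the rank differences (-3.59 and 0.490 points) and of the within-sample difference (-0.21) gave p from 0.5 to 0.812. It changed no call on either gene. Neither gene had another single-gene probe to try. The same limma alternatives were run on the 5 other list genes after the data had been seen. The sign of HEMA3 turned to -0.13 without samples 5 and 6 of both groups, AT1G78620 passed there and without high-CO2 samples 5 and 6 (-1.19, adjusted p = 0.0389), and with a random pair block CBL and LHB1B2 did not pass (adjusted p = 0.179 and 0.0993).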
